A study of Mus musculus with 42 samples.

Results

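Loss of Smad4 in Gli1+ stromal cells of the proximal mouse colon was examined in 4 RNA-seq libraries, which were chosen by the genotype and the colon segment in their labels, out of 42 libraries of the series. The study deleted components of BMP signaling in Gli1+ stromal cells and profiled these cells, goblet cells of the same colon and organoids given interleukins. The 2 GS4T libraries came from Gli1-CreERT2;Smad4 fl/fl;Rosa26-tdTomato mice and the 2 GWTT libraries from Gli1-CreERT2;Rosa26-tdTomato mice, which carry the same Cre and reporter and keep Smad4. The study states an age of 2 to 4 months and both sexes for its mice as a whole, and both GS4T libraries read as female. Mice of both genotypes received 100 µl of tamoxifen at 20 mg/ml on 5 days in a row. On day 30 tdTomato+ cells were sorted by flow cytometry. The labels and the methods name different routes of injection. Cre was driven by Gli1, so recombination and the red reporter both mark cells that expressed Gli1 when tamoxifen was given and the cells that descend from them. The number of mice behind a library is not in the labels, and p-values therefore measure only the spread between these libraries. The GWTT libraries differed in sex by their reads and so came from different mice. Between the GS4T libraries the spread may be technical. Levels are the normalized gene counts that the authors deposited, and all changes are differences of log2(normalized count + 1) between GS4T and GWTT libraries.

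Gli1 is a transcription factor and a target of Hedgehog signaling, and in the gut it marks fibroblasts and telocyte-like cells that lie under the crypts and supply Wnt ligands, R-spondins and BMP antagonists to the epithelium. BMPs, activins and TGF-β bind pairs of serine-threonine kinase receptors, which phosphorylate receptor Smads. Smad4 is the partner that both the BMP and the TGF-β/activin branch of receptor Smads share when they act on genes in the nucleus.

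Smad4 itself stood at 1604 and 1673 normalized counts in the GWTT libraries and at 705.5 and 835.3 in the GS4T libraries (log2 fold change -1.09, SE 0.12, adjusted p = 0.010 by limma). Both GS4T libraries lay well below both GWTT libraries, and reads from Smad4 remained in each. Gli1 stood at 642 and 1597 in the GWTT libraries, and at 1481 in GS4T replicate 1 and 23.9 in GS4T replicate 2 (adjusted p = 0.42). GS4T replicate 2 thus held far less Gli1 mRNA than the other 3 libraries, among which the groups overlapped. Reads on genes ranged from 16186689 to 17656823 per library, and the 10 most abundant genes held 8.76% to 10.4% of them. By Xist and genes of chromosome Y, GWTT replicate 1 was male and the other 3 libraries were female, and the part of sex in the results was not tested. Across genes, the libraries of a group correlated at 0.929 (GWTT) and 0.974 (GS4T) and libraries of different groups at 0.846 to 0.897, with genes not being independent replicates.

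Of 15319 genes tested, 1472 (9.61%) differed between GS4T and GWTT cells in limma, with an adjusted p under 0.05 and a log2 fold change of 1 or more in size. Of these, 804 rose (5.25% of genes tested) and 668 fell (4.36%), and the median over all genes was 0.02. The values of the groups did not overlap for 10021 genes (65.4%), so non-overlap by itself says little about a gene. Genes were set apart by cell type, because markers of epithelium and leukocytes were read in all 4 libraries. Of 1524 genes assigned to epithelium, from marker lists and from their level in sorted goblet cells, 172 rose and 12 fell, with a median of 1.08. Of 385 leukocyte genes 50 rose and 51 fell (median -0.60), and of 49 markers of other stroma and vessels 8 rose and 4 fell. The remaining 13361 genes included 574 that rose and 601 that fell, with a median of -0.02. The number of calls changed with single libraries left out, and was lower without either GS4T library and higher without either GWTT library. In these fits the lone library of a group is assumed to vary like the other group. Their counts therefore depend on the spread of the group kept whole, and do not show which libraries carry the differences. All 1472 genes kept their sign in each of these fits, which says little, because they were selected as called in the full fit.

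**Figure D1:**
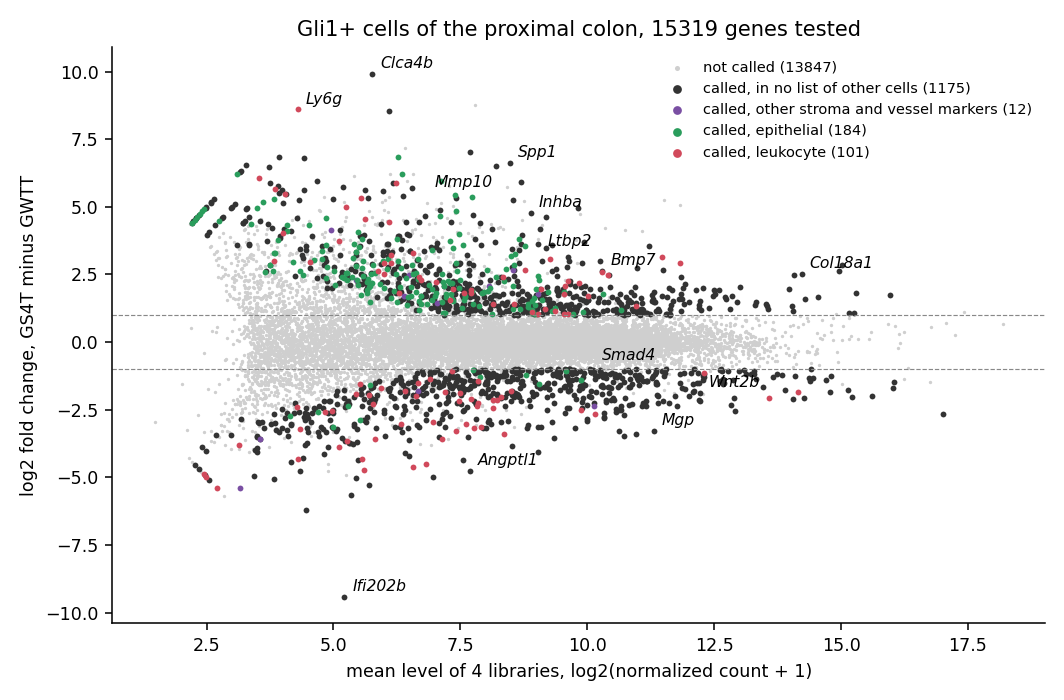
Each point is a gene of sorted proximal Gli1+ cells, with its mean level over 4 libraries on the horizontal axis and its log2 fold change (GS4T minus GWTT) on the vertical axis. Colors give the class of the 1472 called genes, dashed lines mark a log2 fold change of 1 in each direction, and epithelial calls lie mostly above the upper line.

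Markers of several other cell types differed between the libraries. The 29 epithelial markers summed to 658.6 normalized counts in GWTT replicate 1, 26560 in GWTT replicate 2 and 40350 and 59920 in the GS4T libraries, so that 1 control library was nearly free of epithelial RNA. Epcam, an adhesion molecule of epithelial cells, read 52.7 and 1061 in the GWTT libraries and 2713 and 3918 in the GS4T libraries (adjusted p = 0.12), and Krt18, a keratin, was the 1 epithelial marker called. Without GWTT replicate 1, 14 of the 29 were called higher and 4 lower, and without GWTT replicate 2, 26 were called higher. None was called when a GS4T library was left out. Of 16 neutrophil markers tested 12 rose and none fell. List sums in this paragraph also hold members that were too low to be tested, and the neutrophil sum went from 130.3 and 307.4 to 3498 and 3172. Ly6g, the surface marker of mouse neutrophils, had no read in either GWTT library and stood at 451.9 and 330.9 in the GS4T libraries, at least 127-fold higher. Of 22 macrophage and monocyte markers 14 rose, among them Cd14, Lyz2 and the C1q chains, and 1 fell, which was Ly6c2. Their sum was 9985 and 13510 in GWTT and 49880 and 30240 in GS4T libraries. Without GS4T replicate 1 no neutrophil and no macrophage marker was called higher, and without GS4T replicate 2 the numbers were 2 and 6, with medians of 4.51 and 4.36 (neutrophil) and 1.36 and 2.52 (macrophage). Without GWTT replicate 1, 8 macrophage markers were called higher. B and plasma cell markers summed to 180500 and 287700 in GWTT and to 73820 and 121200 in GS4T libraries, with 1 of 18 called lower (Jchain) and 2 higher (Ighg2c and Sdc1, a proteoglycan that epithelium also makes). Their median was -1.38, DESeq2 called 5 lower, leaving out GWTT replicate 1 gave 4 lower, and leaving out any other library gave none. Of 21 markers of T, NK and innate lymphoid cells 4 fell, Cd8a, Trbc1, Nkg7 and Ncr1. In bulk RNA of sorted cells, more cells of a type and more RNA per cell cannot be told apart.

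**Figure D2:**
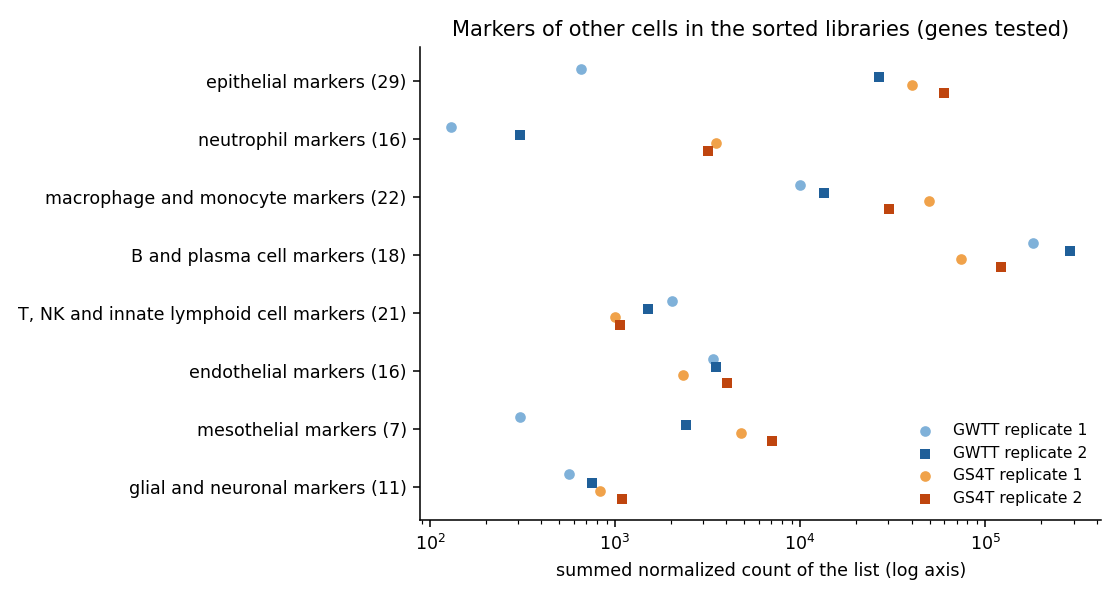
Summed normalized counts (log axis) of marker lists of other cell types in each of the 4 libraries, with the number of genes tested in parentheses. The sums also hold members too low to be tested. GWTT replicate 1 stands apart at the low end of the epithelial and mesothelial sums (the latter list holds the keratin Krt19), and the neutrophil sums of GS4T (3498 and 3172) lie far above those of GWTT.

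The stromal genes were read in lists by function, which were drawn up by symbol. Members that epithelium or leukocytes also express were kept in them. Counts and medians of these lists can therefore hold RNA of those cells. The plot of stromal lists shows the log2 fold change of every tested member, and the text gives for each list how many of its tested genes were called against the 5.25% that rose and the 4.36% that fell among all genes. Counting genes without a read in one group at the bound their reads allow changed no list median. It could not have done so, since each such gene stayed on the same side of its list median.

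**Figure D3:**
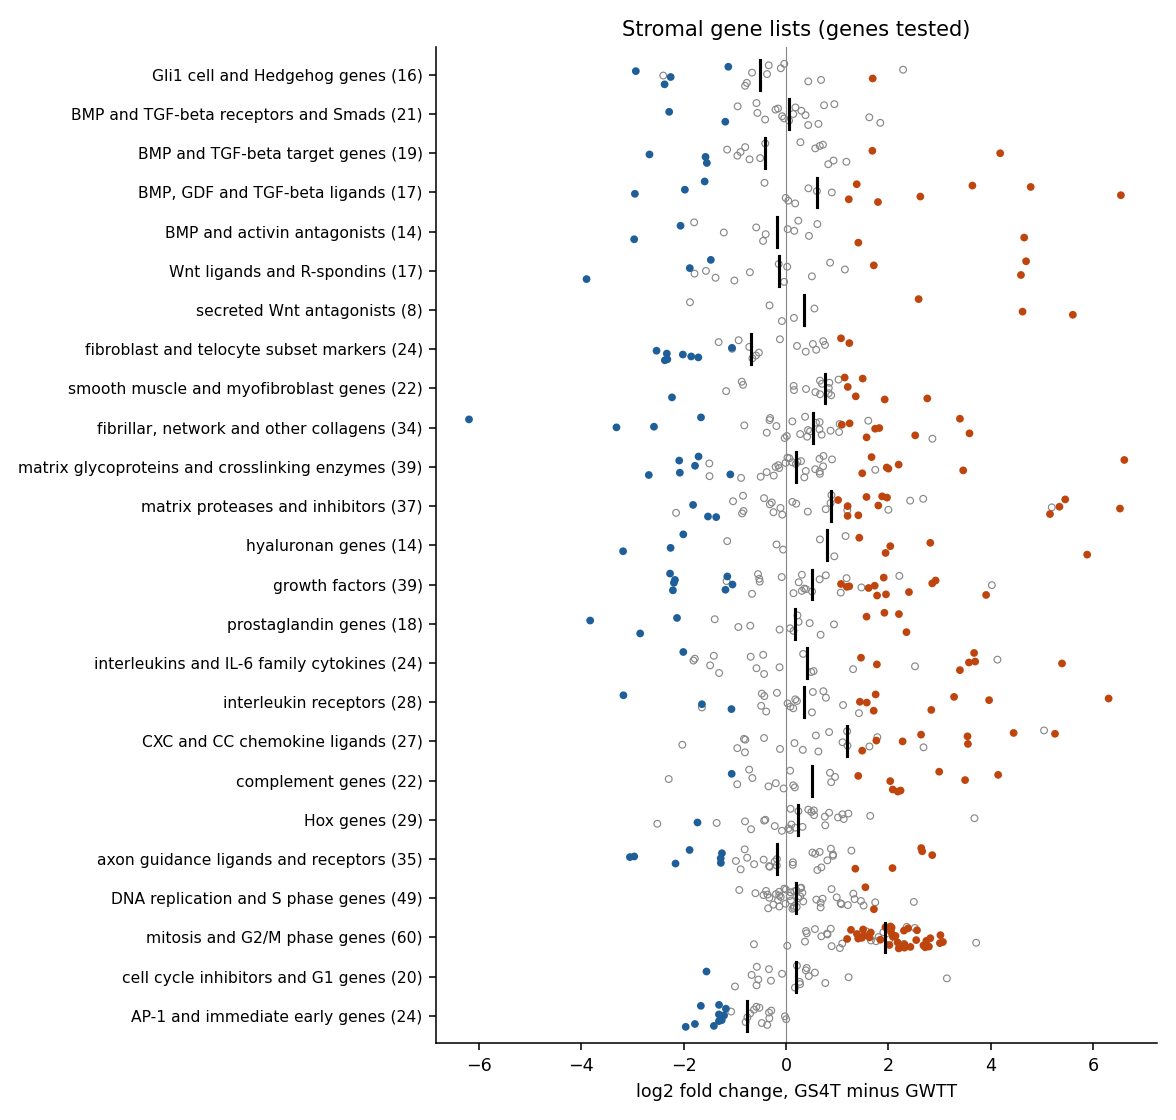
Each point is a tested gene of a stromal list, placed by its log2 fold change (GS4T minus GWTT, horizontal axis), with called genes filled (orange higher, blue lower), open circles for genes not called and black bars at the list median. Genes of mitosis lie almost wholly to the right of 0 (median 1.92), and AP-1 and immediate early genes to the left (median -0.77).

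Of the 21 receptors, co-receptors and Smads none rose and 2 fell, with a median of 0.06, which ranged from -0.01 to 0.20 with single libraries left out. Rgmb, a co-receptor of BMPs, fell from 3952 and 4327 to 736.8 and 977.8 (log2 fold change -2.28, SE 0.16, adjusted p = 0.0052). Acvr2a, a type II receptor of activins and BMPs, fell from 932.6 and 993.9 to 417.8 and 427.6 (log2 fold change -1.19, adjusted p = 0.0074). The values of these genes were separate between groups and close together within each. Bmpr1a, the gene of Alk3, had a log2 fold change of -0.04 (adjusted p = 0.84). Of 19 target genes of the pathway 2 rose and 3 fell. Id4 and Id2, inhibitors of basic helix-loop-helix factors and direct BMP targets, and Bambi, a pseudoreceptor that BMP signaling induces, were the members that fell. Id4 read 320.5 and 403.7 in GWTT and 41.5 and 74.8 in GS4T libraries (log2 fold change -2.67, adjusted p = 0.014), and Id2 1993 and 1487 against 611.4 and 547.2 (-1.57, adjusted p = 0.0093). Bambi went from 524.2 and 380.2 to 128.2 and 180.4 (-1.55, adjusted p = 0.024). Id1 and Id3 did not pass, with log2 fold changes of -0.51 (adjusted p = 0.20) and -0.95 (adjusted p = 0.015, below the size asked for). The 2 that rose are known as targets of the TGF-β branch. Ltbp2, a matrix protein of the latent TGF-β binding family, rose from 135.4 and 113.7 to 1772 and 2924 (log2 fold change 4.19, SE 0.27, adjusted p = 0.0041). Pmepa1, an inhibitor of TGF-β signaling, rose from 3026 and 3327 to 11740 and 8909 (1.69, adjusted p = 0.0076). Without GS4T replicate 1 the calls among targets were 1 higher and 0 lower, and without GS4T replicate 2 they were 2 and 1.

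Ligands of the family had 7 of 17 tested members higher, 3 lower and a median of 0.60. Inhba and Inhbb encode the subunits of activins. Inhba read 105.5 and 75.8 in GWTT and 3119 and 1985 in GS4T libraries (log2 fold change 4.78, SE 0.28, adjusted p = 0.0038), and Inhbb 130.3 and 104.5 against 1232 and 1752 (3.64, SE 0.23, adjusted p = 0.0041). Bmp8b had no read in either GWTT library and 107 and 79.7 normalized counts in the GS4T libraries, at least 30.2-fold higher (adjusted p = 0.0081). Bmp7 rose from 548 and 466.2 to 3920 and 2488 (2.63, SE 0.24, adjusted p = 0.0068). Bmp3 rose from 413.6 and 659.9 to 1778 and 1860 (1.80), Bmp5 from 1458 and 1383 to 4252 and 2600 (1.23, adjusted p = 0.032) and Tgfb1 from 632.8 and 507.2 to 1508 and 1449 (1.38). In all 7 each GS4T library lay above each GWTT library, which being called makes likely and which adds no support. The groups were also separate for 65.4% of all genes tested. Tgfb3 fell from 1905 and 2479 to 643.7 and 807.4 (-1.59, adjusted p = 0.010), Gdf6 from 658.6 and 936.6 to 153.1 and 258.2 (-1.98, adjusted p = 0.020) and Gdf10 from 1492 and 2063 to 258.2 and 197.4 (-2.95, adjusted p = 0.0052). Bmp4, a ligand that this stroma is known to make, read 8123 and 8127 in GWTT and 9031 and 7765 in GS4T libraries (log2 fold change 0.04, SE 0.13, adjusted p = 0.84). Without GS4T replicate 1, 3 ligands were called higher and 1 lower, and without GS4T replicate 2 the numbers were 4 and 1.

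Of 14 secreted antagonists of BMPs and activins 2 rose and 2 fell. Chrdl2, a chordin-like BMP binder, rose from 15.5 and 28.7 to 465.7 and 665.8 (log2 fold change 4.66, SE 0.39, adjusted p = 0.0063), whereas its relative Chrdl1 fell from 962.6 and 567.7 to 97.8 and 89.7 (-2.97, SE 0.29, adjusted p = 0.0076). Bmper, another BMP binding protein, rose from 346.4 and 399.6 to 1023 and 964.9 (1.41). Grem1, the antagonist best known in crypt-base stroma, read 15530 and 15570 in GWTT libraries and 7556 and 14290 in GS4T libraries (-0.58, adjusted p = 0.25). Its GS4T libraries differed from each other more than the GWTT libraries did. No antagonist was called without GS4T replicate 1, and 1 was called lower without GS4T replicate 2.

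**Figure D4:**
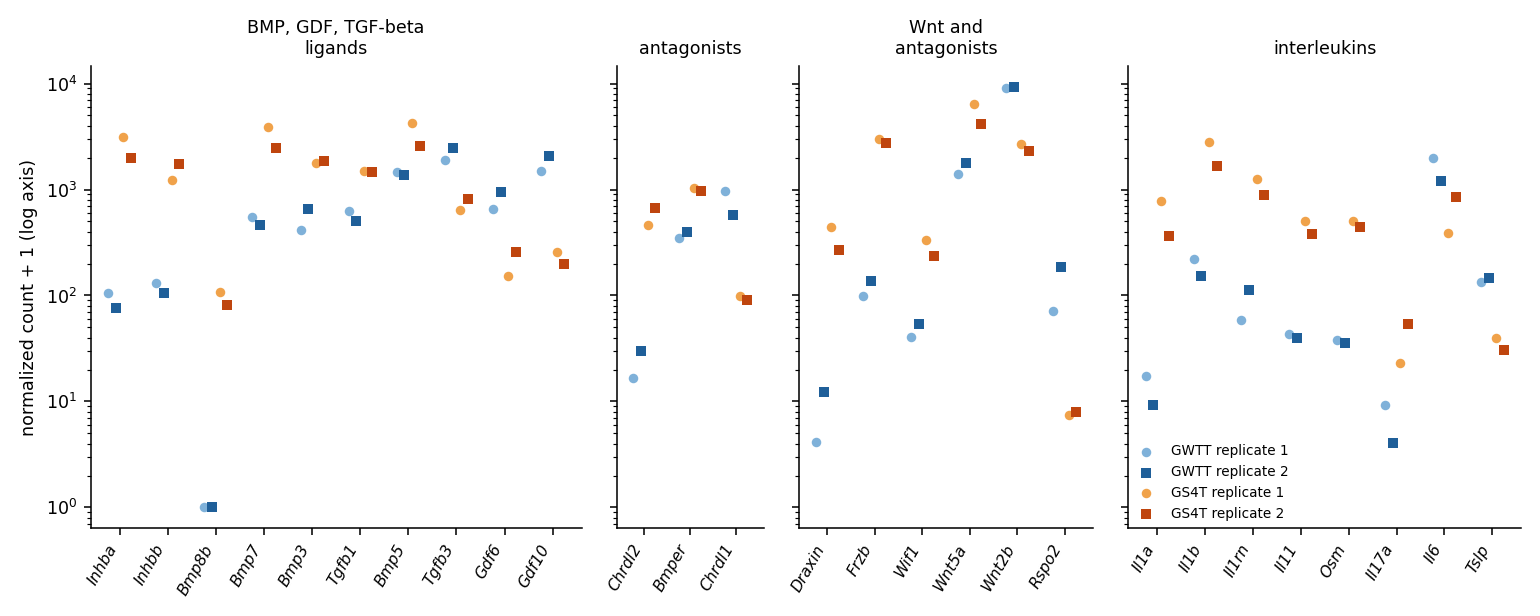
Normalized count plus 1 (log axis) of ligands, antagonists and cytokines in each of the 4 libraries, circles for replicate 1 and squares for replicate 2, blue for GWTT and orange for GS4T. Bmp8b, without a read in either GWTT library, sits at 1 there. Inhba, Chrdl2, Frzb and Il1a each differ by more than the distance between libraries of a group, which being called makes likely.

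Wnt ligands and R-spondins, which maintain crypt stem cells, moved in both directions, with 3 of 17 higher, 3 lower and a median of -0.14. Wnt2b, a canonical ligand of colonic stroma, fell from 9028 and 9358 to 2697 and 2312 (log2 fold change -1.88, SE 0.12, adjusted p = 0.0041). Rspo2, which potentiates Wnt signals, fell from 70.3 and 184.4 to 6.46 and 6.98 (-3.90, adjusted p = 0.019), and Wnt9a from 478.7 and 379.1 to 119 and 197.4 (-1.47, adjusted p = 0.035). Wnt5a, the ligand of noncanonical signaling, rose from 1397 and 1761 to 6374 and 4168 (1.72, SE 0.24, adjusted p = 0.015). Wnt7b and Wnt10a had no read in either GWTT library and 25.8 and 23.9 (Wnt7b) and 18.4 and 28.9 (Wnt10a) in the GS4T libraries, at least 8.05-fold and 7.67-fold higher. Rspo3 did not pass (-1.38, adjusted p = 0.078). Secreted Wnt antagonists had 3 of 8 higher, none lower and a median of 0.36, which was 0.61 without GS4T replicate 1 and 0.26 without GS4T replicate 2. Frzb, a decoy receptor that binds Wnt ligands, rose from 98.2 and 137.3 to 3007 and 2768 (4.62, SE 0.19, adjusted p = 0.0035), and Draxin, which blocks a Wnt co-receptor, from 3.10 and 11.3 to 444.5 and 267.1 (5.61, SE 0.64, adjusted p = 0.011). Wif1, which binds Wnt proteins directly, rose from 39.3 and 53.3 to 332.9 and 237.2 (2.59, adjusted p = 0.012). Of the Wnt ligands and R-spondins, 0 were called higher and 1 lower without GS4T replicate 1, and 1 and 1 without GS4T replicate 2.

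Of 16 genes of Gli1+ cells and of Hedgehog signaling 1 rose and 4 fell (median -0.52). This median was -0.56 without GS4T replicate 1 and -0.29 without GS4T replicate 2, the library with little Gli1. Hhip, a Hedgehog target that binds and limits the ligand, fell from 2738 and 2926 to 404.8 and 336.9 (log2 fold change -2.94, SE 0.13, adjusted p = 0.0035). Gas1 and Cdon, co-receptors of Hedgehog ligands, fell from 2648 and 2242 to 438 and 594.1 (Gas1, -2.25) and from 962.6 and 1179 to 173.4 and 242.2 (Cdon, -2.37). Ptch1, the receptor of Hedgehog ligands, had a log2 fold change of -0.10 (adjusted p = 0.87). Foxl1, the winged-helix factor that marks telocytes, rose from 248.1 and 266.4 to 907.5 and 766.5 (1.69, SE 0.15, adjusted p = 0.0066). The general fibroblast markers Pdgfra and Pdgfrb were high in all 4 libraries and did not pass (0.76 and 0.53, adjusted p = 0.072 and 0.065). Of 24 markers of fibroblast and telocyte subsets 2 rose and 8 fell, with a median of -0.69. Cd34, a surface marker of the fibroblasts around crypt bases, fell from 15440 and 17340 to 2199 and 4885 (-2.32, SE 0.38, adjusted p = 0.021), and Ackr4, a scavenger receptor of chemokines in submucosal fibroblasts, from 10400 and 6037 to 1280 and 1838 (-2.37, adjusted p = 0.013). Fap, a membrane protease, fell from 3770 and 3803 to 535.8 and 799.4 (-2.53) and the transcription factor Ebf1 from 2091 and 2493 to 356.9 and 576.1 (-2.33). Pdpn and Vcam1, surface proteins of activated fibroblasts, rose from 2444 and 1715 to 4812 and 4853 (Pdpn, 1.24) and from 1311 and 1479 to 3282 and 2624 (Vcam1, 1.08). Between 2 and 8 of the falls in this list were called when single libraries were left out.

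Genes of the contractile apparatus had 6 of 22 members higher, 1 lower and a median of 0.77. Acta2, the smooth muscle actin that defines myofibroblasts, rose from 3237 and 2687 to 12950 and 9738 (log2 fold change 1.93, SE 0.18, adjusted p = 0.0072), and the enteric actin Actg2 from 372.2 and 235.7 to 2103 and 1929 (2.76, SE 0.23, adjusted p = 0.0063). Tpm1 and Cald1, which regulate actin filaments, rose from 4653 and 4734 to 14490 and 12160 (Tpm1, 1.5) and from 6651 and 5931 to 15980 and 16330 (Cald1, 1.36). Myh11, the myosin of differentiated smooth muscle, and Des, its intermediate filament, did not pass (0.39 and 0.83). None of the list was called higher without GS4T replicate 1, and 4 were without GS4T replicate 2.

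Collagens had 8 of 34 members higher and 4 lower (median 0.53). The network collagens of basement membranes, Col4a1 and Col4a2, rose from 41300 and 29580 to 113100 and 120800 (Col4a1, log2 fold change 1.74) and from 25400 and 18170 to 73770 and 78400 (Col4a2, 1.82, adjusted p = 0.014). Col18a1, another basement membrane collagen, rose from 8844 and 7195 to 51840 and 40690 (2.53, SE 0.20, adjusted p = 0.0058), and Col7a1, which forms anchoring fibrils, from 134.4 and 113.7 to 1706 and 1012 (3.40, SE 0.28, adjusted p = 0.0061). Col22a1, a collagen of tissue junctions, rose from 75.5 and 61.5 to 1008 and 681.8 (3.59, SE 0.26, adjusted p = 0.0052). Col4a3 and Col4a4, the chains of the alternative basement membrane network, fell from 98.2 and 65.6 to 6.46 and 7.97 (Col4a3, -3.31) and from 193.3 and 95.3 to 18.4 and 25.9 (Col4a4, -2.58). Col6a6 fell from 158.2 and 219.3 to 5.53 and 0 (adjusted p = 0.020). The interstitial collagen Col1a1 read 114500 and 102400 in GWTT and 161000 and 191500 in GS4T libraries (0.70, adjusted p = 0.25). The calls among collagens were 2 higher and 1 lower without GS4T replicate 1 and 5 and 2 without GS4T replicate 2.

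Other matrix proteins split, with 7 of 39 higher and 6 lower (median 0.19). Spp1 (osteopontin), a phosphoprotein that macrophages also make, rose from 11.4 and 104.5 to 3231 and 3863 (log2 fold change 6.61, SE 0.98, adjusted p = 0.017). Fbn2, a fibrillin of microfibrils, rose from 220.2 and 139.4 to 2820 and 1337 (3.46, SE 0.41, adjusted p = 0.011), and Lox, which crosslinks collagen and elastin, from 2794 and 2191 to 9484 and 10350 (2.0, SE 0.15, adjusted p = 0.0052). Loxl2, an enzyme of the same kind, rose from 8641 and 7572 to 31950 and 31340 (1.97). Ecm2, an extracellular matrix protein, fell from 4595 and 3940 to 617 and 711.7 (-2.68, SE 0.13, adjusted p = 0.0035), the fibulin Fbln1 from 37590 and 43490 to 9161 and 10050 (-2.08, adjusted p = 0.0056) and Sparcl1, a relative of osteonectin, from 15060 and 16290 to 2894 and 4691 (-2.09, adjusted p = 0.011). Lum, a proteoglycan that spaces collagen fibrils, fell from 26320 and 30480 to 5946 and 11470 (-1.78, adjusted p = 0.028). Leaving out GS4T replicate 1 left 0 of this list higher and 2 lower, and leaving out GS4T replicate 2 left 4 and 5.

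Matrix proteases and their inhibitors had 12 of 37 members higher and 3 lower (median 0.87). Mmp10, a stromelysin, read 29 and 30.7 in GWTT libraries and 4473 and 1805 in GS4T libraries (log2 fold change 6.53, SE 0.44, adjusted p = 0.0047). Mmp13, the main interstitial collagenase of mice, read 24.8 and 26.6 against 2165 and 542.2 (5.34, SE 0.65, adjusted p = 0.012), and the stromelysin Mmp3 664.8 and 559.5 against 1449 and 1055 (1.02, adjusted p = 0.029). The GS4T libraries of Mmp10 and Mmp13 differed from each other severalfold, and both lay far above the GWTT libraries. Mmp8, a collagenase of neutrophils that is also in the neutrophil list, read 5.17 and 0 in GWTT and 154 and 75.8 in GS4T libraries (adjusted p = 0.030), and the part of neutrophil RNA in this was not tested. Adamts16, a protease of the ADAMTS family, had no read in GWTT libraries and 29.5 and 40.9 in GS4T libraries, at least 11.4-fold higher. Timp1, an inhibitor of metalloproteases, rose from 356.7 and 349.4 to 1060 and 1599 (1.88). Mmp16, Adamts10 and Adamts1 fell, by 1.82, 1.53 and 1.36 on the log2 scale. With single libraries left out, the members called higher numbered 2 without GS4T replicate 1, 5 without GS4T replicate 2, 14 without GWTT replicate 1 and 16 without GWTT replicate 2.

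The promoters of these 3 metalloprotease genes are shown because each holds an AP-1 element next to its start, and the neighboring genes lie together on chromosome 9. Stretches of 150 bases that end at the base before the RefSeq start (GRCm38.p6, 5′ to 3′ on the strand of the gene) read as follows, with the element TGAGTCA or its reverse complement TGACTCA in capitals.
Mmp10, chr9:7502192-7502341, plus strand: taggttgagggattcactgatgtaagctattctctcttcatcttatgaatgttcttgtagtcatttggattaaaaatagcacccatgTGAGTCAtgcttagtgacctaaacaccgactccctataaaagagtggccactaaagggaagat
Mmp13, chr9:7272364-7272513, plus strand: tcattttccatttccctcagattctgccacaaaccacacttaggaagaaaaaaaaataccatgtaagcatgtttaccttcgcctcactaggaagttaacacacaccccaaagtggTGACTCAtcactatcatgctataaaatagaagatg
Mmp3, chr9:7445672-7445821, plus strand: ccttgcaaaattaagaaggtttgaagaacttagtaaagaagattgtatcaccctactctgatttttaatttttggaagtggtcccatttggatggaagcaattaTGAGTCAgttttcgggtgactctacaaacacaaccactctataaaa
The element begins 63 bases before the start in Mmp10, 35 in Mmp13 and 46 in Mmp3. On either strand, it was found in the 250 bases before a start in 502 of 11594 tested genes with a listed promoter (4.33%), in 5 of 24 proteases and inhibitors (20.8%), and in 4 of the 10 of these that rose (40%). A match of letters is a description and shows no binding.

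Genes of hyaluronan, the large sugar polymer of loose matrix, had 5 of 14 higher and 3 lower. Of those that rose, Hmmr is also in the list of mitosis genes and Lyve1 in that of endothelial markers. Cemip, a hyaluronan depolymerase, rose from 5.17 and 13.3 to 993.2 and 310 (log2 fold change 5.89, SE 0.71, adjusted p = 0.012). The synthases moved in opposite directions, since Has2 rose from 301.9 and 282.8 to 1095 and 1322 (2.04, SE 0.14, adjusted p = 0.0052) and Has1 fell from 9130 and 5145 to 1028 and 2002 (-2.26, SE 0.41, adjusted p = 0.027). Hapln1, which links hyaluronan to proteoglycans, fell from 312.3 and 228.5 to 40.6 and 19.9 (-3.18, adjusted p = 0.015). With GS4T replicate 1 left out 1 hyaluronan gene was called higher and 0 lower, and with GS4T replicate 2 left out 2 and 0.

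Interleukins and cytokines of the IL-6 family had 7 of 24 tested members higher, 1 lower and a median of 0.41. Il1a and Il1b encode the IL-1 cytokines, which start inflammatory responses through Il1r1. Il1a read 16.5 and 8.2 in GWTT and 776.5 and 365.8 in GS4T libraries (log2 fold change 5.39, SE 0.53, adjusted p = 0.0077), and Il1b 218.2 and 151.7 against 2836 and 1674 (3.58, SE 0.31, adjusted p = 0.0065). Il1rn, the antagonist of their receptor, rose from 57.9 and 110.7 to 1250 and 884.1 (3.70, SE 0.36, adjusted p = 0.0077). Il11, a fibroblast cytokine of the IL-6 family, rose from 42.4 and 38.9 to 501.7 and 382.8 (3.40, SE 0.25, adjusted p = 0.0052), and Osm, a related cytokine of myeloid cells, from 37.2 and 34.8 to 504.4 and 441.6 (3.68, SE 0.23, adjusted p = 0.0041). For all 5 the lower GS4T library was several times the higher GWTT library. Tslp, an alarmin, fell from 134.4 and 145.5 to 38.7 and 29.9 (-2.01, adjusted p = 0.020). Il17a read 8.27 and 3.07 in GWTT and 22.1 and 52.8 in GS4T libraries (2.52, SE 0.77, adjusted p = 0.086). Il6 read 1987 and 1191 against 389.2 and 857.2 (-1.41, SE 0.43, adjusted p = 0.088), and Il22 105.5 and 22.5 against 14.8 and 12 (-1.81, adjusted p = 0.19). The groups did not overlap for these 3, as for 65.4% of all genes tested, and none passed the test. Il13 lay below the filter on low values, at 20.7 and 5.12 in GWTT and 0.92 and 3.99 in GS4T libraries. Leaving out GS4T replicate 1 left no interleukin called higher, and leaving out GS4T replicate 2 left 4. The list median turned to -0.25 and -0.19 in these fits and was 0.10 without GWTT replicate 2.

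Myeloid cells are also known to make Il1a, Il1b, Il1rn and Osm. The macrophage and neutrophil sums given above rose in the same libraries, with the higher macrophage sum and the higher Il1b in GS4T replicate 1, and the part of these cells in the cytokine values was not tested. The starts of Il1a and Il11 are shown as well, since each holds the same AP-1 element in capitals.
Il1a, chr2:129309973-129310122, minus strand: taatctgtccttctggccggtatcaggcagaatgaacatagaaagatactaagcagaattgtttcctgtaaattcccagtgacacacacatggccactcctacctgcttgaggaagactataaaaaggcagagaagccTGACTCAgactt
Il11, chr7:4778142-4778291, minus strand: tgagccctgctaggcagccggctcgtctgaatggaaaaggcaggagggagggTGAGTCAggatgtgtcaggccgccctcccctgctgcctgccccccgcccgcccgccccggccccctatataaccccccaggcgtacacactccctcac
Of the 5 interleukin genes that rose and have a listed promoter 3 held it (60%), the other being Il1rn, and of all 16 in the list 7 did (43.8%). Il11 has 2 listed starts, and the stretch belongs to the start that holds the element.

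Among 28 interleukin receptors 8 rose and 3 fell. Il1r1, the signaling receptor of IL-1, rose from 2058 and 2083 to 6900 and 5547 (log2 fold change 1.58, adjusted p = 0.0063). Il1rl1, the receptor of IL-33, rose from 156.1 and 70.7 to 2508 and 1099 (3.97, SE 0.53, adjusted p = 0.014), and Il13ra2, a decoy receptor of IL-13, from 7.24 and 12.3 to 52.6 and 103.7 (2.84, adjusted p = 0.034). Il20ra had no read in GWTT libraries and 78.4 and 77.8 in GS4T libraries, at least 25.3-fold higher, and Il31ra fell from 116.8 and 75.8 to 5.53 and 16 (-3.18, adjusted p = 0.033). Of 27 chemokine ligands 8 rose and none fell (median 1.19). Cxcl5 and Cxcl3, which attract neutrophils, rose from 15.5 and 68.7 to 811.5 and 672.8 (Cxcl5, 4.45, adjusted p = 0.019) and from 1.03 and 4.10 to 210.3 and 70.8 (Cxcl3, 5.26, adjusted p = 0.019). Cxcl14, a chemokine that fibroblasts and epithelium make, rose from 552.1 and 864.8 to 8304 and 7873 (3.55, SE 0.22, adjusted p = 0.0041). Ccl6, a chemokine of myeloid cells, read 64.1 and 245.9 against 1201 and 1846 (3.56, adjusted p = 0.027). Of 22 complement genes 8 rose and 1 fell. C6, a component of the membrane attack complex, rose from 32.1 and 44.1 to 430.7 and 440.6 (3.50, SE 0.27, adjusted p = 0.0052). C1qa, C1qb and C1qc, 3 of the complement genes that rose, are also in the macrophage list, and Cfd is in the adipocyte list. No chemokine and no complement gene was called higher without GS4T replicate 1, and 2 of each were without GS4T replicate 2. Of the interleukin receptors 1 was called higher and none lower when either GS4T library was left out.

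Growth factors of the EGF, FGF, HGF, IGF, PDGF and VEGF families had 12 of 39 members higher, 7 lower and a median of 0.51. Nrg1, an ErbB ligand that acts on crypt epithelium, rose from 405.3 and 295.1 to 4440 and 1560 (log2 fold change 2.92, SE 0.50, adjusted p = 0.024), and Ereg, a ligand of the EGF receptor, from 2361 and 1084 to 6420 and 11170 (2.40, SE 0.44, adjusted p = 0.028). The neurotrophin Bdnf rose from 18.6 and 6.15 to 139.3 and 225.3 (3.91, adjusted p = 0.020). Igfbp5, which binds insulin-like growth factors, rose from 13580 and 11240 to 74460 and 107800 (2.86, SE 0.26, adjusted p = 0.0067), and its relative Igfbp6 fell from 11250 and 9175 to 1357 and 3645 (-2.19, adjusted p = 0.039). Vegfd, a lymphatic growth factor, fell from 1419 and 1440 to 272.1 and 322.9 (-2.27, SE 0.13, adjusted p = 0.0038), Fgf18 from 135.4 and 90.2 to 26.7 and 19.9 (-2.21) and Nrg2 from 99.3 and 67.6 to 20.3 and 15 (-2.17). The growth factor calls were 1 higher and 1 lower without GS4T replicate 1, 4 and 3 without GS4T replicate 2 and 13 and 3 without GWTT replicate 1. Within the prostaglandin genes 4 of 18 rose and 3 fell. Ptgfr, the receptor of prostaglandin F, fell from 1309 and 1454 to 77.5 and 119.6 (-3.83, SE 0.24, adjusted p = 0.0041). Hpgd, which inactivates prostaglandins, fell from 3020 and 2474 to 340.3 and 420.6 (-2.85, SE 0.16, adjusted p = 0.0037), and Ptgis, the prostacyclin synthase, from 2779 and 3111 to 556.1 and 809.4 (-2.13). Ptgs1, a cyclooxygenase, rose from 1655 and 1286 to 5239 and 3606 (1.57, adjusted p = 0.016), while Ptgs2, the inducible one, had a log2 fold change of 0.22. Without GS4T replicate 1 none of the prostaglandin genes was called higher and without GS4T replicate 2 1 was, with 3 lower in both.

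Guidance molecules had 5 of 35 members higher and 7 lower. Their median was -0.18, but 0.22 without GS4T replicate 2, 0.18 without GWTT replicate 2 and 0.04 in DESeq2, and the calls were 1 higher and 1 lower without GS4T replicate 1 and 2 and 3 without GS4T replicate 2. Ntn1, a netrin, fell from 9705 and 10230 to 1826 and 2725 (log2 fold change -2.16, SE 0.21, adjusted p = 0.0072), and the semaphorin Sema3d from 1099 and 1559 to 138.3 and 178.4 (-3.05, SE 0.23, adjusted p = 0.0052). Efnb2, an ephrin of vessels and stroma, rose from 411.5 and 427.3 to 1868 and 1691 (2.08, SE 0.11, adjusted p = 0.0036), and Sema7a, a membrane-bound semaphorin, from 83.8 and 76.9 to 578.2 and 454.5 (2.66, SE 0.21, adjusted p = 0.0058). Of 29 Hox genes, which record position along the gut, none rose and 1 fell, Hoxb4, from 325.7 and 328.9 to 80.2 and 117.6 (-1.74, adjusted p = 0.017).

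Genes of mitosis and the G2/M phase formed the list with the most calls. Of 60 tested members 35 were called higher and none lower, 59 had a higher mean in GS4T cells and the median log2 fold change was 1.92. Cdk1, the kinase that drives entry into mitosis, read 18.6 and 26.6 in GWTT and 187.2 and 201.3 in GS4T libraries (3.07, SE 0.34, adjusted p = 0.0098). Top2a, a topoisomerase that untangles replicated chromosomes, read 182 and 178.3 against 688.9 and 830.3 (2.06, SE 0.16, adjusted p = 0.0056). Cdc20, an activator of the complex that ends metaphase, rose from 38.3 and 51.2 to 205.7 and 244.2 (2.31), and the spindle motor Kif11 from 73.4 and 93.3 to 196.4 and 276.1 (1.48, adjusted p = 0.031). The kinesin Kif2c rose from 6.20 and 9.22 to 68.2 and 68.8 (3.02) and Cdca3, a mitotic regulator, from 9.31 and 26.6 to 112.5 and 161.5 (3.01). Mki67, the gene of the Ki67 antigen, read 256.4 and 372 against 818 and 800.4 (1.39, SE 0.21, adjusted p = 0.017). In these genes the GS4T libraries lay close to each other and above both GWTT libraries. Genes of DNA replication and the S phase had 2 of 49 members called higher, Ccna2 and Uhrf1, none lower and a median of 0.20. Pcna, the sliding clamp of replication, read 1499 and 1490 in GWTT and 1048 and 1156 in GS4T libraries (-0.44, adjusted p = 0.048), and the helicase subunit Mcm2 257.5 and 190.6 against 397.5 and 333.9 (0.72, adjusted p = 0.087). Of 20 cyclins, inhibitors and other G1 genes 1 was called, Myc, which fell from 1837 and 1006 to 397.5 and 538.2 (-1.55, adjusted p = 0.036). The count of G2/M genes called was 36 and 39 with a GWTT library left out, but 0 without GS4T replicate 1 and 1 without GS4T replicate 2, where the medians were 2.19 and 1.82. Epithelial and macrophage marker sums rose in the same libraries, and their part in these values was not tested.

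The cell cycle homology region TTTGAA, a short element known from promoters of G2/M genes, was searched with its reverse complement TTCAAA in the same windows. Starts of 4 genes that rose are shown, chosen after their values were seen, with the element in capitals.
Cdk1, chr10:69352913-69353062, minus strand: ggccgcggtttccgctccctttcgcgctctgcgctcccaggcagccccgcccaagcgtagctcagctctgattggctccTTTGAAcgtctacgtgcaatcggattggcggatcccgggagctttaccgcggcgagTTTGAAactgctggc
Top2a, chr11:99024190-99024339, minus strand: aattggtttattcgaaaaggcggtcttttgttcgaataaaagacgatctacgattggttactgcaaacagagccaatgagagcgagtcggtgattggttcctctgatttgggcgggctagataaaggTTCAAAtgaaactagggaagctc
Kif11, chr19:37376232-37376381, plus strand: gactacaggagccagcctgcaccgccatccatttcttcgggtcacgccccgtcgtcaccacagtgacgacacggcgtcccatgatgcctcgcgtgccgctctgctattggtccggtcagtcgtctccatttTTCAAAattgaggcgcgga
Cdc20, chr4:118437344-118437493, minus strand: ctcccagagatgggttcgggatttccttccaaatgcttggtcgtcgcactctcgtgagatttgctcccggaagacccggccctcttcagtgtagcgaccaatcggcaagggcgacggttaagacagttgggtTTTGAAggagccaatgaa
The copy nearest the start begins 15 bases before it in Cdk1, 23 in Top2a, 19 in Kif11 and 18 in Cdc20. Of the 29 G2/M genes that rose and have a listed promoter 14 held the element (48.3%), against 13.2% of all tested genes with a promoter and 5 of 37 S phase genes (13.5%). Over the whole G2/M list it was found in 20 of 50 (40%). The CCAAT box (CCAAT or ATTGG) was found in 23 of the 29 (79.3%), in 37 of the 50 in the whole list (74%), in 39.7% of all genes and in 26 of the 37 S phase genes (70.3%). The E2F element TTTCCCGC or its reverse complement was in none of the 29, in 5 of the 37 (13.5%) and in 1.81% of all genes.

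AP-1 and immediate early genes, which respond within minutes to growth factors and to stress, had 10 of 24 members lower, none higher and a median of -0.77. Fos and Jun, the subunits that give AP-1 its name, fell from 35950 and 30750 to 13150 and 13660 (Fos, log2 fold change -1.31, adjusted p = 0.012) and from 26670 and 18730 to 11650 and 8007 (Jun, -1.21, adjusted p = 0.042). Egr1, a zinc finger factor, fell from 72190 and 61100 to 20490 and 18250 (-1.78, SE 0.20, adjusted p = 0.010), the stress factor Atf3 from 6415 and 4230 to 1476 and 1213 (-1.96, SE 0.23, adjusted p = 0.011) and Socs3, an inhibitor of cytokine signaling, from 25270 and 16020 to 7286 and 5526 (-1.66, adjusted p = 0.021). GWTT replicate 1 was the highest library for each of these 5. The part of tissue handling before the sort in these values was not tested. None of the list was called when either GS4T library was left out, where the medians were -0.67 without replicate 1 and -0.92 without replicate 2.

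The largest changes outside the lists of other cells included genes with few reads in one group. Clca4b, a secreted protein of the calcium-activated chloride channel regulator family, read 0 and 2.05 in GWTT and 1735 and 1664 in GS4T libraries, a ratio of 1652 with a counting interval of 457 to 13648 (exact 95% interval, counting error only). Chil3, a chitinase-like protein of activated macrophages, rose from 3.10 and 2.05 to 996 and 1720 (log2 fold change 8.53, SE 0.41, adjusted p = 0.0035), and Ceacam2, an adhesion molecule, from 21.7 and 13.3 to 1850 and 2964 (7.02, SE 0.35, adjusted p = 0.0035). The protease Prss22 read 0 and 1.02 against 147.6 and 178.4 (ratio 315, interval 56.2 to 12496), and Brinp1 0 and 1.02 against 119 and 129.6 (ratio 241, interval 42.9 to 9556). Marco, a scavenger receptor of macrophages, had no read in GWTT and 132.8 and 47.8 in GS4T libraries, at least 29.2-fold higher. Atp6v0d2, a proton pump subunit of macrophages and osteoclasts, rose from 4.14 and 1.02 to 191.8 and 207.3 (5.96, adjusted p = 0.0084). Several of these genes are known from myeloid cells or epithelium and were not removed by the lists used, and the part of those cells was not tested.

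Among the falls, Ifi202b, an interferon-inducible gene, read 613.1 and 1547 in GWTT and 0 and 0.997 in GS4T libraries. This is a ratio of 2259 with a counting interval of 405 to 89261. The part of genetic background, which may differ between the mouse lines, was not tested. Angptl1, a secreted angiopoietin-like protein, fell from 1119 and 1041 to 43.3 and 34.9 (log2 fold change -4.76, SE 0.21, adjusted p = 0.0035). Opcml and Lsamp, adhesion molecules of the IgLON family, fell from 294.7 and 352.5 to 16.6 and 2.99 (Opcml, -5.27) and from 656.6 and 753.1 to 16.6 and 26.9 (Lsamp, -4.99, SE 0.32, adjusted p = 0.0041). The scaffold protein gene Cnksr2 fell from 378.4 and 222.4 to 3.69 and 5.98 (-5.67, SE 0.48, adjusted p = 0.0063), Itgbl1 from 355.7 and 172.1 to 5.53 and 7.97 (-5.02) and Vstm2b from 119.9 and 91.2 to 2.77 and 2.99 (-4.77). Klhl34 read 103.4 and 63.5 against 0 and 4.98. Calb2, a calcium-binding protein also known from neurons, the pseudogene Vmn1r207-ps and the antisense gene Fzd10os had no read in GS4T libraries, and were at least 11.3-fold, 11.6-fold and 8.77-fold lower. Without stranded counting, which is not stated, reads of Fzd10os cannot be told from those of its partner gene. Mgp, a matrix protein that binds BMPs and inhibits calcification, was added after its values were seen, since it had the smallest adjusted p. It fell from 8030 and 7779 to 803.2 and 824.3 (-3.28, SE 0.09, adjusted p = 0.0021).

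The largest changes within the lists of other cells were rises of Retnlb and Gpx2, known from goblet and other epithelial cells, of Prss8, an epithelial protease, and of Ngp, a granule protein of neutrophils. Retnlb read 1.03 and 24.6 in GWTT and 418.7 and 1643 in GS4T libraries, Gpx2 1.03 and 44.1 against 533 and 927, Prss8 0 and 0 against 55.3 and 95.7, and Ngp 0 and 1.02 against 63.6 and 138.5. The falls were of immunoglobulin segments and of Ncr1, a receptor of NK cells, which read 19.7 and 47.1 in GWTT libraries and had no read in GS4T libraries. Igkv8-16 had no read in GS4T libraries, at least 10-fold lower than its 31 and 26.6 in GWTT libraries. Igkv6-20 fell from 466.3 and 473.4 to 11.1 and 28.9 (log2 fold change -4.63, adjusted p = 0.0086), and Ighv9-4 from 656.6 and 95.3 to 4.61 and 15 (-4.73). Each clone of B cells uses its own such segments.

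The same deletion was profiled in the distal colon, in 4 other libraries with their own controls, where 2130 of 15262 genes (14%) were called. Of the 1424 genes called in the proximal colon that were tested in both segments, 884 were called in the same direction in the distal colon, which is 62.1% of these and 43.1% of the 2052 distal calls tested in both. A further 2 were called in the opposite direction and 538 were not called distally. The difference between the segments was tested directly as an interaction in limma, and 29 of 14871 genes (0.195%) passed. All distal libraries were female by Xist and genes of chromosome Y, so GWTT-Proximal replicate 1 was the only male library in this test. It was also the control nearly free of epithelial RNA, and the part of either in the differences was not tested. Has2 rose in the proximal colon (2.04) but read 1076 and 1406 in distal GWTT and 1118 and 915.9 in distal GS4T libraries (-0.28), a difference of 2.32 (SE 0.24, adjusted p = 0.046). Efnb2 behaved alike, with a log2 fold change of 2.08 proximally and 0.17 distally (difference 1.91, SE 0.20, adjusted p = 0.046), and Vegfd fell in the proximal colon more than in the distal (-2.27 and -0.15, difference -2.11, adjusted p = 0.046). Mmp3 rose much more in the distal colon, from 489.9 and 288.5 to 10300 and 7361 (4.53 against 1.02, difference -3.51, SE 0.40, adjusted p = 0.046). Edil3, a matrix protein, and Hoxd11 fell distally (-2.76 and -2.36) and had proximal log2 fold changes of -0.53 and 0.50, with differences of 2.23 and 2.86. Foxl1 (1.69 and -0.07) and Ptgfr (-3.83 and 0.43) were called in the proximal colon and not in the distal, and neither difference passed (adjusted p = 0.069 and 0.059). The count of 29 was 1 in edgeR with TMM, and 0 when GWTT-Proximal replicate 1, either GS4T-Proximal library or either GWTT-Distal library was left out.

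**Figure D5:**
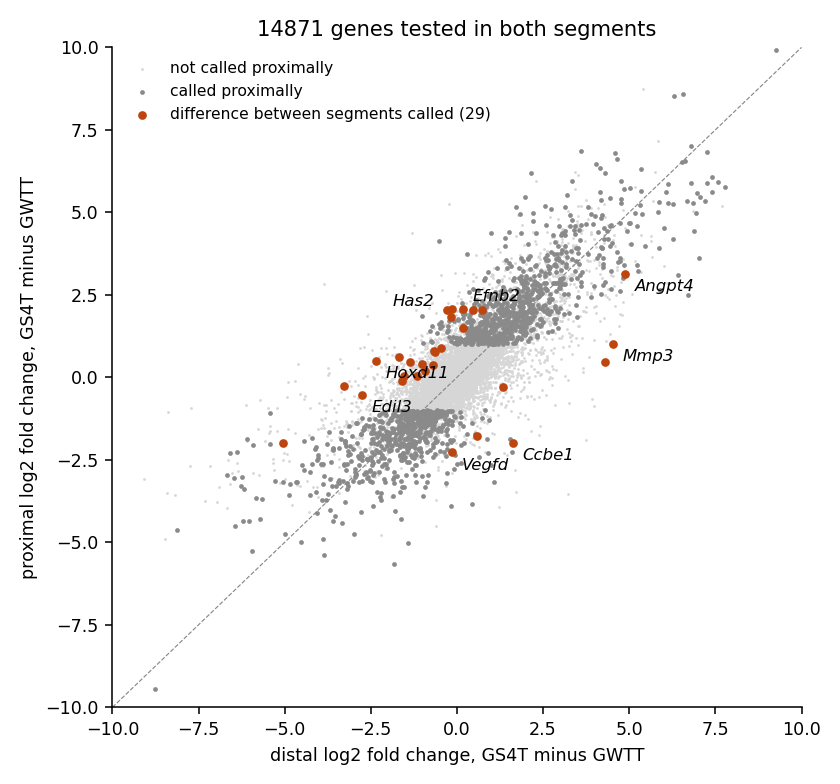
Each point is a gene tested in both colon segments, with the distal log2 fold change on the horizontal and the proximal on the vertical axis (GS4T minus GWTT), and the dashed line marks equal changes. Genes called proximally are dark gray and lie mostly along the line, and the 29 genes whose difference between segments was called are orange, with Has2, Efnb2 and Vegfd changed along the proximal axis and Mmp3 further along the distal axis.

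Gli1+ cells of the proximal colon that lacked Alk3, a type I BMP receptor, were compared with the same 2 GWTT libraries in a table with its own scaling, so the comparisons share their controls. There 55 of 15346 genes (0.358%) were called. In the GA3T libraries Mmp10 read 1421 and 3273 (log2 fold change 6.06, against 6.53 in GS4T cells), Cemip 1107 and 1764 (7.15 against 5.89), Bmp7 4626 and 6352 (3.35 against 2.63) and Col22a1 997 and 1360 (4.0 against 3.59). Inhba read 1151 and 2650 (4.2 against 4.78) and Ltbp2 1293 and 3622 (4.04 against 4.19). Frzb stood at 645.3 and 1179 in GA3T libraries (2.83 against 4.62) and Id4 at 116.2 and 82.7 (-1.94 against -2.67). Angptl1 read 522 and 117.4 (-2.19 against -4.76), and Ceacam2 5.01 and 425.7, with the GA3T libraries far apart. These genes were picked from those named for GS4T cells, and errors of the shared controls enter both fold changes alike. Whether each gene passed in GA3T cells is not given here. GA3T replicate 1 was male and GA3T replicate 2 female by Xist and genes of chromosome Y, and the part of sex was not tested. The differences between the knockouts were not tested.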

How the data were processed

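The authors checked reads with FastQC, mapped them uniquely to mm10 with STAR 2.5.3 and normalized gene counts with DESeq2 1.28.1. The counting program, its annotation and its strand setting are not given in the sources used here. The deposited values are a normalized signal per gene, which the authors made by dividing counts by 1 size factor per library within a table. Each value was within 0.1 of a whole multiple of the library's step (100%), so reads were recovered. Genes with a mean of at least 10 in the 4 libraries were tested on log2(value + 1) with limma 3.58.1 (trended empirical Bayes, 2-sided, Benjamini-Hochberg adjustment, no replicate block), which left out 1578 of 16897 rows. Fold changes of low genes are understated by the pseudocount. An exact permutation test of 2 against 2 libraries cannot pass 0.05. The GWTT libraries of the Alk3 table held equal reads for 15935 of 15940 shared genes and are the same libraries. For a group without a read, the bound is 3 reads per library. Intervals are exact binomial (scipy 1.17.1) and cover counting error only.

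The members and lists were chosen with earlier results of these data known. Genes named are Smad4, Gli1, the cytokines in the study's text, up to 4 called genes in each direction per stromal list, the 12 largest rises and 12 largest falls among called, non-overlapping genes outside the lists of other cells and the genes that goblet cells hold at 4 or more times the level of Gli1+ cells, and 5 of each within them. Genes of immune families, by symbol, and predicted genes were also left out of the largest changes. Further members (among them Mmp3, Il1r1, Timp1, Col4a1, Loxl2, Bmp3, Tgfb1, Fos, Jun, Top2a, Cdc20, Kif11, Pcna, Mcm2, the markers of other cells and those given as not passing) were named after their values were seen. Spreadsheet dates in place of names (21) were not named. Promoters are from RefSeq (GRCm38.p6), which is the mm10 assembly. Of 15319 genes tested 11594 had a promoter in the RefSeq table, and a gene was counted if any of its starts held the motif. A GC-rich Smad motif and an NF-κB motif were also searched and are not reported. Replicate numbers of the groups share only a number, since 2 pairs are too few to show pairing. Some genes that the rule names are not reported here.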

Additional observations from a re-analysis of the deposited data

Results flagged for a closer look

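The effect of Smad4 loss differed between the proximal and the distal colon, by the interaction test in limma, for 6 genes of the stromal lists. The difference (proximal minus distal log2 fold change) was 1.91 for Efnb2, 2.32 for Has2, 2.23 for Edil3 and 2.86 for Hoxd11. It was -2.11 for Vegfd and -3.51 for Mmp3. These calls depend on the fit, since the 29 genes called across the genome became 1 in edgeR with TMM and 0 when any of several single libraries was left out. No cause was tested.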

How the results depend on the processing

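All 1472 genes called in proximal GS4T cells kept their sign under every alternative run, and 117 were called under every one. The kept sign says little, because these genes were selected as called. Their number was 1368 and 1649 with pseudocounts of 0.1 and 10, 1507 without a filter, 1228 at a mean of at least 50, 1469 with upper-quartile rescaling, 1452 in edgeR 4.0.16 with TMM, 2006 in DESeq2 1.42.0 and 2446 at an unadjusted p, of which 51.9% to 56.5% were higher (54.6% as reported). Leaving out single libraries gave 119 to 2154 genes, of which 68% were higher without GWTT replicate 2, 62.5% without GWTT replicate 1, 42.8% without GS4T replicate 2 and 32.8% without GS4T replicate 1, and the cause was not tested. With the replicate number as a block, 1618 genes were called, with 9 B and plasma cell markers lower (1 as reported) and 9 epithelial markers higher (1 as reported). The deviations of same-numbered libraries correlated at 0.119, and the numbers are not known to pair the libraries. The 29 genes with a difference between segments became 39 at a pseudocount of 10, 29 at a mean of at least 50, 1 in edgeR with TMM, 1 with the replicate block, 753 at an unadjusted p and 0 to 84 with single libraries left out, 0 of them without GWTT-Proximal replicate 1, either GS4T-Proximal library or either GWTT-Distal library. The cause was not tested. Of 165 named genes tested, 124 lost their call without GS4T replicate 1, 89 without GS4T replicate 2, 14 without GWTT replicate 1 and 3 without GWTT replicate 2, and no alternative reversed one. The sign of 1 named gene that was not called changed without GS4T replicate 2. With 2 libraries per group, the spread rests on few values.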
